A study of Rattus norvegicus with 4 samples.

Results

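The 10 genes described here belong to the amino acid response driven by the transcription factor ATF4. They were chosen by name, with earlier results of these data known, and are Atf4, Ddit3, Asns, Trib3, Chac1, Psat1, Phgdh, Slc7a5, Slc3a2 and Ddit4. All 10 were found by symbol among the 17949 genes of the count table and passed the filter on low counts. RNA-seq was performed on primary rat Schwann cells (SCs), the glia of peripheral nerve, labelled as from sciatic nerve and grown in 10% FBS with 4 μM forskolin and 5 ng/ml heregulin-β1. One group was infected for 48 h with a lentivirus that overexpresses the Egr2 promoter antisense RNA (Lenti-AS, n = 2), and the control group with a virus carrying GFP (Lenti-GFP, n = 2). Both groups carry a virus and received polybrene, and the vector backbone named for the antisense RNA bears a red fluorescent reporter where the control has a green one, so the RNA and the reporter cannot be told apart. The samples are described as biological replicates, but the sources used here do not say that they came from separate animals, so p-values measure the spread between these samples only.

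ATF4 is a basic leucine zipper factor of the integrated stress response. When amino acids run short or another stress activates a kinase of the translation initiation factor eIF2, most protein synthesis slows while the Atf4 mRNA is translated more, so that ATF4 can rise with little change of its own mRNA. With C/EBP partners it binds the C/EBP-ATF response element (CARE) and raises genes that import amino acids, make serine and asparagine, and restrain growth signalling through mTOR complex 1. Myelinating glia make large amounts of membrane protein, and the pathway is known in SCs from inherited neuropathies with misfolded myelin proteins.

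The promoters are shown because these genes are known as targets of 1 factor. RefSeq promoter sequences of the GRCr8 assembly were matched by symbol for 10 of the 10 genes, with 11 start sites, since Slc3a2 has a pair of them. The counts were made on rn6, another build. In the 250 bases before each start, the CARE core TGATGNAA was searched on both strands. It was present before 2 of the 11 starts, those of Chac1 and Trib3, and before 3.40% of all 33469 rat promoters. Below, both of these are given with the promoters of Asns and Slc7a5, the 2 members called different, and of Slc38a1, a related transporter gene that was also called and has a match. Sesn2 and Gadd45a, the other related genes called, were searched too, had 0 matches and are not shown. Sequences run 5′ to 3′ along the gene's strand, and capitals mark the CARE match. Chac1 lies on the plus strand at chr3:126795881-126796130, Trib3 on the minus strand at chr3:161275534-161275783, Asns on the minus strand at chr4:36769416-36769665, Slc7a5 on the minus strand at chr19:66872413-66872662 and Slc38a1 on the minus strand at chr7:129681402-129681651.
Chac1: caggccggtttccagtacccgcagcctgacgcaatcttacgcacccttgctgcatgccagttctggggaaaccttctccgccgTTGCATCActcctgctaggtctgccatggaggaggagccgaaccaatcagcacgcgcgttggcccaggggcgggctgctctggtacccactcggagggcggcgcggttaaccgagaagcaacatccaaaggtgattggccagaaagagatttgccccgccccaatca
Trib3: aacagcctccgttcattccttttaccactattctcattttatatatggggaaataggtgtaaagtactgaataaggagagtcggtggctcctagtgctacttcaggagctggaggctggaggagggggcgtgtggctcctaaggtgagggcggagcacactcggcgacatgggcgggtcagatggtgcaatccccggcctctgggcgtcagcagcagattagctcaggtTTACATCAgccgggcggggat
Asns: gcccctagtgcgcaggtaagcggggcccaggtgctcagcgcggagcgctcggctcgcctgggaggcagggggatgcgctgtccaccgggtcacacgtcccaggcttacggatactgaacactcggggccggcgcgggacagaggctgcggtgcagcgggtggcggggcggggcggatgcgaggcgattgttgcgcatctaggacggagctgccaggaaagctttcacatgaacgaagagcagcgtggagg
Slc7a5: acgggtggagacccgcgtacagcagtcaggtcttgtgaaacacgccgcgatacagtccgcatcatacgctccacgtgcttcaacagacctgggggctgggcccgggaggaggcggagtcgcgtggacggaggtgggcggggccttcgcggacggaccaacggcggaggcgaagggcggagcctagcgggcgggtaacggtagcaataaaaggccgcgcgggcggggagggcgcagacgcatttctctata
Slc38a1: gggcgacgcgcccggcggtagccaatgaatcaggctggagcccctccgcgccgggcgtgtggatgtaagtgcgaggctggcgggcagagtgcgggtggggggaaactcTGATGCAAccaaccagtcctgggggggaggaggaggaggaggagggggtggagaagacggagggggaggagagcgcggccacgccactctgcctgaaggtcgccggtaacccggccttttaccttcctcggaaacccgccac
The match began 167 bases before the start in Chac1, 21 bases before it in Trib3 and 142 bases before it in Slc38a1. It reads TTGCATCA on the strand of Chac1 and TTACATCA on that of Trib3, both the reverse complement of the element. On the strand of Slc38a1 it reads TGATGCAA. The windows of Asns and Slc7a5 hold no match to the CARE core. Bases outside these windows and variants of the core were not searched, so a missing match does not show that a gene lacks the element. The longer cyclic AMP element TGACGTCA was in 0 of the 11 windows and in 1.59% of all promoters, while its shorter part TGACG was in 4 of the 11 and in 18.2% of all.

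Of the 10 ATF4 response genes, Asns and Slc7a5 rose in Lenti-AS, by 1.46-fold and 1.42-fold, and the other 8 did not pass the test. The fitted change was above 0 in all 10, as it was in 51.3% of all genes, with a median log2 fold change of 0.34 against 0.01 over all genes tested. In 9 of the 10, the lower Lenti-AS sample was above the higher Lenti-GFP sample, as it was in 27.7% of all genes, and Atf4 itself was the exception. Since the members were chosen with earlier results known, these counts only describe the list and were not tested. A call needed an adjusted p under 0.05 and a fold change of at least 1.3 by edgeR's quasi-likelihood test, and 1.31% of the 12446 genes tested were called higher and 0.667% lower. Levels are CPM, the count of a gene relative to the scaled size of its library, and are compared between samples for 1 gene at a time, since they are not corrected for gene length. In bulk RNA, more cells that express a gene and more RNA per cell cannot be told apart.

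**Figure D1:**
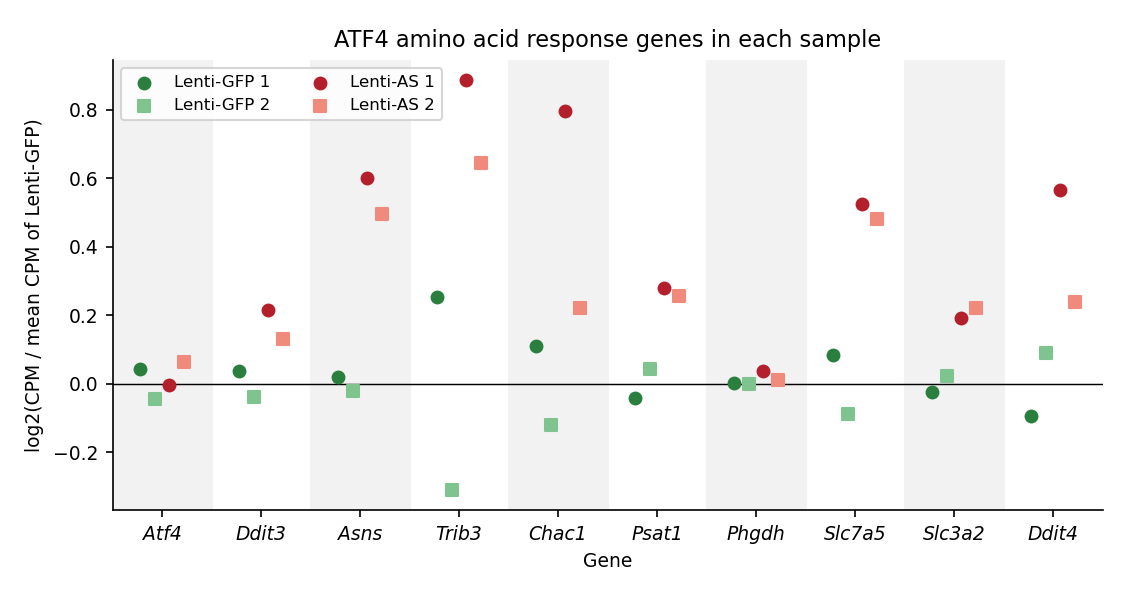
Level of each of the 10 genes in each sample, as log2 of the CPM over the mean CPM of the Lenti-GFP samples. Green points are Lenti-GFP and red points Lenti-AS, with circles for sample 1 and squares for sample 2. The red points lie above the green ones in 9 of the 10 genes, and Atf4 overlaps.

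Total counts were between 74024323 and 96185890 per sample. The Lenti-AS samples differed from each other more than the Lenti-GFP samples did in several cell type markers. The Schwann cell markers S100b, Pmp22, Erbb3 and Ngfr had between 448 and 2982 CPM in every sample, Sox10 had 61.2 to 77.1 CPM in 3 samples but 163 in Lenti-AS 1, and Gap43 stayed at or under 0.264 CPM. The summed level of 6 fibroblast markers was 999 and 858 CPM for the controls, 2475 CPM in Lenti-AS 1 but 414 CPM in Lenti-AS 2, nearly all of it from Col1a1 and Col1a2, whereas Dcn, Lum and Thy1 stayed at or under 0.0321 CPM. The 4 macrophage markers summed to 3.20 to 4.19 CPM and the 3 endothelial markers to 0.253 to 0.771 CPM. Globin genes took 0.351% of the counts of Lenti-AS 2 and at most 0.00109% in the others. Without the 11 globin rows, 245 genes were called where 246 were with them, and Asns and Slc7a5 were still the members called. The part of the other markers in the results was not tested.

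Among the regulators, Atf4 mRNA was at the same level in both groups within the spread. It had 179 and 169 CPM in Lenti-GFP, against 174 and 182 CPM in Lenti-AS, so the groups overlapped, with Lenti-AS 2 highest and Lenti-GFP 2 lowest. The log2 fold change was 0.03, with a 95% confidence interval of -0.11 to 0.17 (adjusted p = 0.797). As a fold change the interval ran from 0.924 to 1.13, so larger changes of the mRNA lie outside it. Without Lenti-GFP 2 or Lenti-AS 2 the estimate was slightly below 0.

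Ddit3 encodes CHOP, a bZIP factor that pairs with C/EBP proteins and accompanies prolonged stress. It had 21.4 and 20.4 CPM in Lenti-GFP against 24.3 and 22.9 CPM in Lenti-AS. The groups did not overlap, and were separated by 1.43 CPM where the pair of Lenti-AS samples was separated by 1.38 CPM. Its log2 fold change of 0.17 (interval -0.01 to 0.35, adjusted p = 0.239) did not pass the test.

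Trib3 encodes a pseudokinase that binds ATF4 and AKT and acts as a brake on both. It was a low gene, with 163 and 112 counts in Lenti-GFP and 237 and 172 in Lenti-AS, or 1.75 and 1.18 CPM against 2.70 and 2.29 CPM. Its fitted change was the highest of the 10 (log2 fold change 0.77, standard error 0.25), and the interval ran from 0.15 to 1.39. The Lenti-GFP samples differed by 0.564 CPM and the gap between the groups was 0.542 CPM, and it was not called (adjusted p = 0.166).

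Chac1 encodes an enzyme that breaks down glutathione and is often used as a readout of ATF4. It had 2.06 and 1.75 CPM in Lenti-GFP, then 3.31 and 2.22 CPM in Lenti-AS, so Lenti-AS 1 stood well above the other 3 samples and Lenti-AS 2 only 0.165 CPM above the nearest control. The log2 fold change was 0.54 (interval -0.07 to 1.15, adjusted p = 0.271). It was 0.22 without Lenti-AS 1 and 0.80 without Lenti-AS 2, so its size rests largely on Lenti-AS 1.

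Asns, which makes asparagine from aspartate with glutamine as the nitrogen donor, had the smallest p-value of the 10. It rose from 14.0 and 13.6 CPM in Lenti-GFP to 20.9 and 19.4 CPM in Lenti-AS, with 1305, 1288, 1831 and 1460 counts. The gap between the groups was 5.44 CPM, while the controls differed by 0.391 CPM and the Lenti-AS pair by 1.47 CPM. Its log2 fold change was 0.55, with a standard error of 0.08 and an interval of 0.35 to 0.75 (adjusted p = 0.0394), and it ranked at place 160 of the 12446 genes by p.

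Phgdh and Psat1 encode consecutive enzymes of serine synthesis, and neither was called. Phgdh, the first enzyme, had 387 and 386 CPM in Lenti-GFP, compared with 397 and 390 CPM in Lenti-AS. Although the groups did not overlap, they were 2.11 CPM apart, and the log2 fold change was 0.02 with an interval of -0.10 to 0.15 (adjusted p = 0.817). Psat1, the next enzyme, had 130 and 137 CPM in Lenti-GFP, compared with 162 and 159 CPM in Lenti-AS. The gap of 21.9 CPM was larger than the 7.80 and 2.77 CPM within the groups, and the log2 fold change of 0.27 (interval 0.13 to 0.41) missed the threshold with an adjusted p of 0.0770. Its fold change of 1.20 also lay under the 1.3 asked for. With DESeq2 its adjusted p was 0.0035, and in that fit only the fold change kept it from a call. The adjusted p was 0.201 with the likelihood ratio test, 0.0792 with limma-voom and 0.168 under a replicate block. The difference between both genes' changes was not tested.

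Slc7a5 and Slc3a2 encode the light and heavy chains of a transporter that brings leucine and other large neutral amino acids into the cell. Slc7a5 (LAT1, the transporting chain) rose from 42.8 and 38.0 CPM in Lenti-GFP to 58.2 and 56.5 CPM in Lenti-AS. The groups were 13.6 CPM apart, with 4.83 and 1.72 CPM within them, and the log2 fold change was 0.50 (SE 0.08, interval 0.30 to 0.71, adjusted p = 0.0465). Slc3a2 (CD98, the chaperoning chain, which also serves other transporters) had 250 and 259 CPM in Lenti-GFP, compared with 291 and 297 CPM in Lenti-AS. Here too the gap of 32.2 CPM exceeded the spread within the groups, but the fold change of 1.15 (interval 1.06 to 1.26, adjusted p = 0.106) was not called. With DESeq2 the adjusted p of Slc3a2 was 0.0149, and in that fit only the fold change kept it from a call. It was 0.399 with the likelihood ratio test, 0.107 with limma-voom and 0.228 under a replicate block.

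Ddit4 encodes REDD1, an inhibitor of mTOR complex 1. It had 125 and 142 CPM in Lenti-GFP against 198 and 158 CPM in Lenti-AS. Lenti-AS 1 was highest and exceeded Lenti-AS 2 by 40.2 CPM, more than the 15.4 CPM that separated the groups. Its log2 fold change was 0.41 (interval 0.12 to 0.70, adjusted p = 0.136). With DESeq2, which called 3.92% of genes higher, it passed (adjusted p = 0.0116, where the 15 alternative fits gave 4.12e-08 to 0.563). Without Lenti-AS 1 the log2 fold change was 0.24 and without Lenti-AS 2 it was 0.56.

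**Figure D2:**
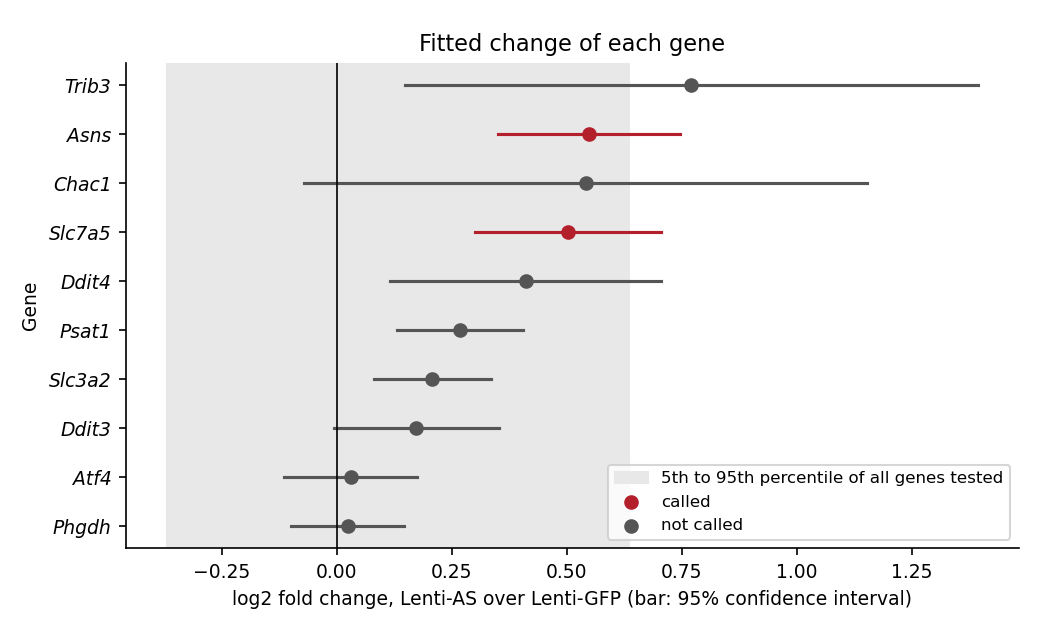
Fitted log2 fold change of each gene, Lenti-AS over Lenti-GFP, with its 95% confidence interval, red for called genes and grey for the others. The grey band spans the 5th to 95th percentile of all genes tested, from -0.37 to 0.63. Asns at 0.55 and Slc7a5 at 0.50 are called although they lie inside the band, and the wider intervals of Trib3 and Chac1 go with their low counts.

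Across the 10 genes Lenti-AS 1 was the highest sample for 8 and Lenti-AS 2 for 2, whereas over all genes these shares were 28.8% and 26.7%. Lenti-GFP 2 was the lowest sample for 7 and Lenti-GFP 1 for 3, compared with 25.1% and 20.5% of all genes. The median of the members relative to the Lenti-GFP mean was 0.40 on the log2 scale for Lenti-AS 1 compared with 0.23 for Lenti-AS 2. The ratio of Lenti-AS 1 to Lenti-AS 2 was largest for Chac1 at 1.49, Ddit4 at 1.25 and Trib3 at 1.18, and between 0.955 and 1.08 for the other 7.

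The calls of Asns and Slc7a5 were kept with either Lenti-AS sample left out and were lost with either control left out and under a replicate block (adjusted p = 0.0996 and 0.0915), and the other 12 of the 15 alternative fits called each gene. Without Lenti-AS 1 the log2 fold changes were 0.49 and 0.48, and without Lenti-AS 2 they were 0.60 and 0.53, and both genes were called. Without Lenti-GFP 1 (adjusted p = 0.350 and 0.297) and without Lenti-GFP 2 (adjusted p = 0.504 and 0.499) neither passed, although the log2 fold changes stayed between 0.42 and 0.60. Without a control sample, the spread comes from the Lenti-AS samples alone and the lone control is assumed to vary like them. Without a Lenti-AS sample, the spread comes from the Lenti-GFP samples alone, so a call kept there does not show that it is robust. Without Lenti-AS 2, Trib3, Chac1 and Ddit4 were called as well, making 5 of the 10, and 1260 of all genes were called higher.

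**Figure D3:**
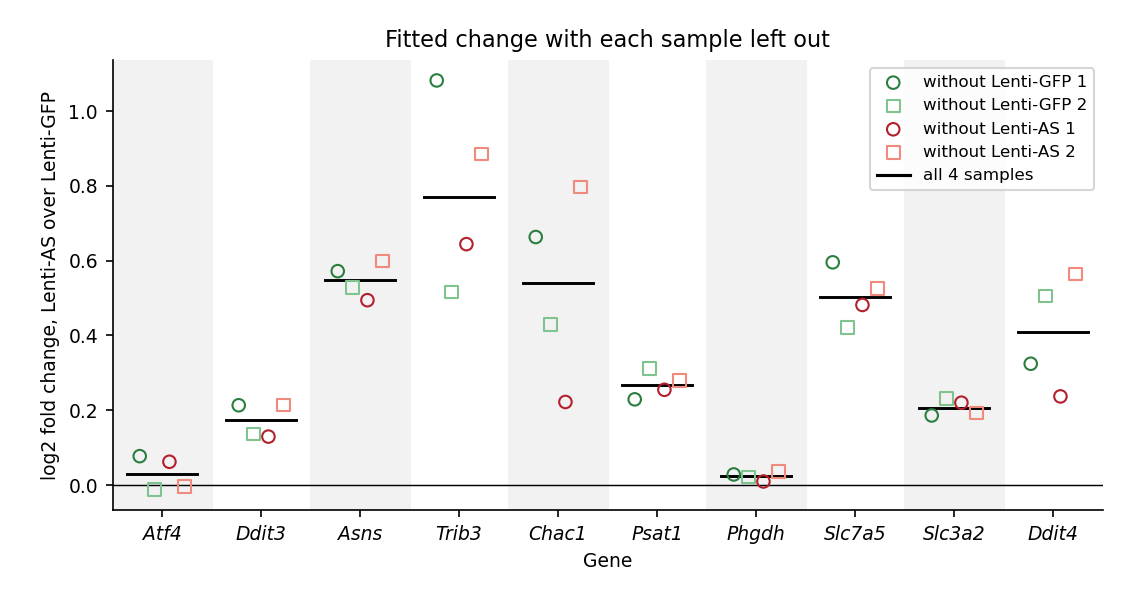
Fitted log2 fold change of each gene with all 4 samples (black line) and with each sample left out (open symbols, coloured by the sample left out). Asns stays between 0.49 and 0.60, while Chac1 ranges from 0.22 to 0.80 and Atf4 lies on both sides of 0.

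Genes around the pathway were taken from 10 lists with 100 tested genes in all. Of these, 3 were called higher by edgeR, against 1.31% of all genes tested. In the other direction 0 were called by edgeR, against 0.667% of all genes, and 0 by DESeq2. At such shares, 0 calls in a short list says little about it. Unadjusted p-values under 0.05 were also found among lower genes, in counts given with the lists. Such values were common over all genes, since an edgeR p of 0.0461 ranked only at place 2586 of the 12446 genes tested. The counts therefore only describe the lists and were not tested. The 3 genes called higher were Sesn2, Slc38a1 and Gadd45a. All 3 calls were lost with either control left out (adjusted p between 0.200 and 0.447) and under a replicate block (0.0680 for Sesn2, 0.0877 for the other two), and were kept with either Lenti-AS sample left out. Sesn2 encodes Sestrin2, a leucine-binding inhibitor of mTOR complex 1 that ATF4 and p53 both raise. It rose from 20.9 and 19.8 CPM to 33.5 and 32.4 CPM (log2 fold change 0.69, SE 0.07, adjusted p = 0.0191). Gadd45a, a growth arrest gene that is also a p53 target, rose from 168 and 167 CPM to 223 and 225 CPM (log2 fold change 0.42, adjusted p = 0.0252). Both belong to the 7 stress effectors tested, of which 3 had an unadjusted p under 0.05, all higher. Among 9 amino acid transporters, 2 had an unadjusted p under 0.05, both higher. Slc38a1, which carries glutamine, was called and rose from 19.2 and 18.7 CPM to 27.6 and 30.4 CPM (log2 fold change 0.61, adjusted p = 0.0276). Slc7a1, the cationic amino acid carrier, named after its values were seen, had 24.6 and 20.4 CPM in Lenti-GFP against 31.3 and 33.4 CPM in Lenti-AS (adjusted p = 0.0684) and was called by DESeq2.

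Most other lists had medians near 0. In the synthetase, one-carbon, eIF2 control and chaperone lists, every fitted change was smaller than the 1.3-fold asked for, in either direction. Their 0 calls by edgeR were therefore set by the fold cut-off, whatever the p. The 21 genes for cytosolic aminoacyl-tRNA synthetases and tRNA export, which include known ATF4 targets, had 0 calls by edgeR and by DESeq2, a median log2 fold change of -0.04 and a range from -0.18 to 0.33. The upper end was Wars, for tryptophanyl-tRNA synthetase (72.3 and 80.0 CPM against 93.8 and 97.4 CPM, adjusted p = 0.0874), and 1 gene in each direction had an unadjusted p under 0.05. The 8 one-carbon enzymes had 0 calls by edgeR and DESeq2, a median of 0.11, and 2 with an unadjusted p under 0.05, both higher, and Aldh1l2, the mitochondrial formyl-tetrahydrofolate enzyme, had the largest change at 0.27 (adjusted p = 0.241). The 8 other amino acid enzymes had a median of 0.01 and 0 calls by both tools (1 gene with an unadjusted p under 0.05). That gene was Gpt2, the mitochondrial alanine aminotransferase, at 24.9 and 25.2 CPM in Lenti-GFP against 29.7 and 30.6 CPM in Lenti-AS (adjusted p = 0.0909).

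Among 14 genes of eIF2 control, which hold the sensing kinases and phosphatase subunits, the median was -0.09 and 0 were called by edgeR or DESeq2, with 1 gene, Eif2b3, lower at an unadjusted p under 0.05. In 7 of the 14 both Lenti-AS samples lay below both controls, against 27.2% of all genes. Eif2b3, a subunit of the exchange factor eIF2B, had the largest change, with 56.9 and 57.5 CPM in Lenti-GFP against 45.9 and 45.5 CPM in Lenti-AS (log2 fold change -0.32, adjusted p = 0.0704). Its fold change of 0.799 also fell short of the 1.3-fold asked for. Of 8 partner factors 0 were called by edgeR, with an unadjusted p under 0.05 for 2 in each direction. Atf5, a factor under the same translational control, showed the widest spread, with 4.78 and 3.21 CPM in Lenti-GFP, 10.6 CPM in Lenti-AS 1 but 3.39 CPM in Lenti-AS 2 (log2 fold change 0.82, interval -0.44 to 2.07, adjusted p = 0.396), and it was called when Lenti-AS 2 was left out. Cebpb, also named after its values were seen, had 10.6 and 9.38 CPM in Lenti-GFP against 14.6 and 14.5 CPM in Lenti-AS (adjusted p = 0.0594), and DESeq2 called it. Cebpg and Cebpa, the other C/EBP genes of the list and likewise named afterwards, were lower. Cebpg had 62.2 and 62.8 CPM in Lenti-GFP against 53.2 and 56.6 CPM in Lenti-AS (adjusted p = 0.205). Cebpa had 31.5 and 29.8 CPM against 26.6 and 24.4 CPM (adjusted p = 0.124).

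The endoplasmic reticulum chaperone genes, targets of the ATF6 and XBP1 arms of the unfolded protein response, lay on the other side of 0. Of 12 genes, 9 had a fitted change below 0 and in 8 both Lenti-AS samples were below both Lenti-GFP samples, against 27.2% of all genes, with a median log2 fold change of -0.16. No gene was called by edgeR or DESeq2, and 6 had an unadjusted p under 0.05, all lower. Hspa5, the chaperone BiP, had 1673 and 1742 CPM in Lenti-GFP against 1360 and 1389 CPM in Lenti-AS (log2 fold change -0.31, interval -0.45 to -0.18, adjusted p = 0.0506). Its fold change of 0.805 also fell short of the 1.3-fold asked for. The difference between this list and the ATF4 response genes was not tested.

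Ddit4 also answers to hypoxia and to glucocorticoids. Of the 7 hypoxia genes tested, 0 were called by edgeR, with 2 higher and 1 lower at an unadjusted p under 0.05 and a median of 0.10. Egln3, a HIF prolyl hydroxylase, had 2.84 and 2.67 CPM in Lenti-GFP against 1.78 and 1.68 CPM in Lenti-AS (log2 fold change -0.67, adjusted p = 0.118), and was called with either Lenti-AS sample left out, while DESeq2 called Pfkfb3, a glycolytic regulator named after its values were seen, at a log2 fold change of 0.47. The 6 glucocorticoid genes had 0 calls by both tools, a median of -0.01 and 1 gene in each direction with an unadjusted p under 0.05. Tsc22d3, a glucocorticoid target, was at 33.0 and 33.3 CPM in Lenti-GFP against 27.8 and 28.1 CPM in Lenti-AS (adjusted p = 0.104). Fkbp5, named after its values were seen, was higher, at 29.3 and 28.8 CPM in Lenti-GFP against 34.8 and 33.4 CPM in Lenti-AS (adjusted p = 0.125).

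**Figure D4:**
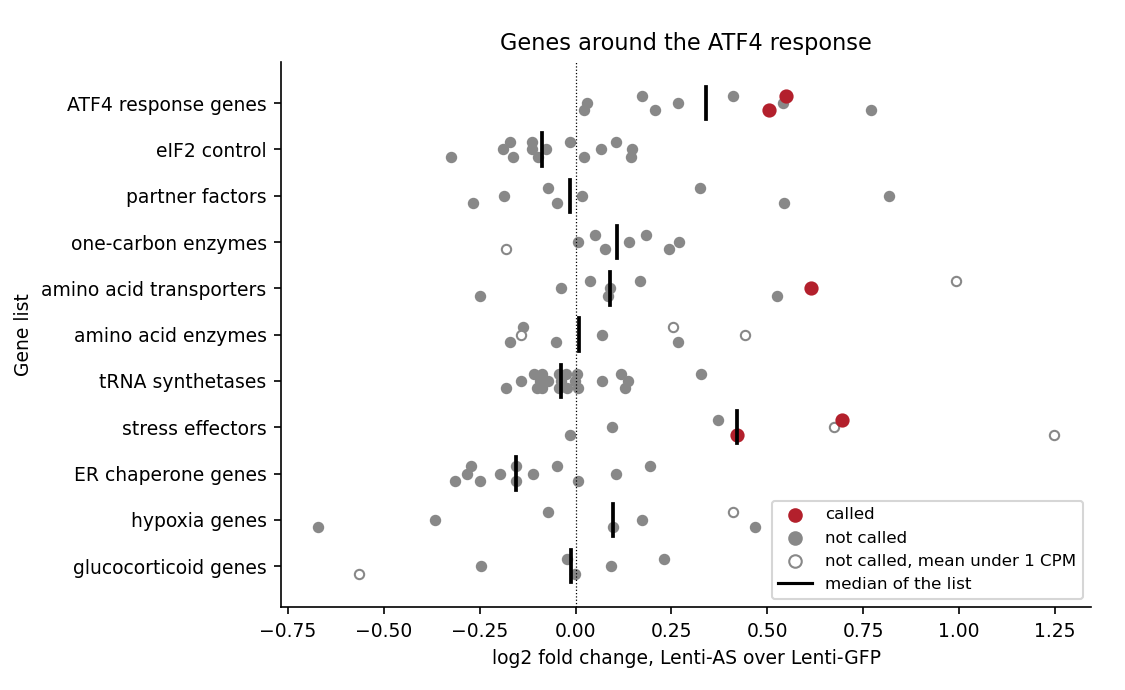
Fitted log2 fold change of each tested gene in the ATF4 response and in 10 related lists, red where called, open where the mean was under 1 CPM, with a black bar at the list's median. The ATF4 response genes have a median of 0.34 and the stress effectors 0.42, while the tRNA synthetases sit near 0 and the chaperone genes at -0.16.

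The genes whose levels over the 4 samples were most like those of Asns were Ubash3b, Arhgap21, Dusp10, Fam111a and Npas2. Likeness was the Euclidean distance between log2 CPM values centred on each gene's mean, from 0.0375 for Ubash3b to 0.0629 for Npas2, among 7794 genes whose mean was 10 CPM or more. Dusp10, a MAP kinase phosphatase, had 99.6 and 94.6 CPM in Lenti-GFP against 141 and 134 CPM in Lenti-AS. With 4 samples, many genes can lie this close.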

How the data were processed

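RNA-seq of 4 samples, 2 Lenti-GFP and 2 Lenti-AS, was analysed, with groups and replicates taken from the sample titles. The authors deposited raw counts per gene, made with featureCounts on RefSeq exons of rn6 from 50 bp paired-end reads. The paper names hisat2 as the aligner and the submitters' processing notes name GSNAP. Versions and the strand setting are not given in the sources used here, so reads of overlapping or antisense genes cannot be separated. From the counts, 1 repeated header row was dropped, and genes had to reach 10 counts in 2 or more samples. The 12446 that did were tested in R 4.3.3 with edgeR 4.0.16 (TMM factors between 0.986 and 1.02, glmQLFit with default settings, glmQLFTest). P-values were adjusted by Benjamini-Hochberg over all of them, and a call needed an adjusted p below 0.05 with a 1.3-fold change or more, the cut-offs of the study. Standard errors and 95% confidence intervals come from the F statistic and its degrees of freedom. CPM values use TMM-scaled library sizes. The biological coefficient of variation was 12.1%. An exact permutation test of 2 samples against 2 cannot go below p = 0.333 (two-sided), so none is given.

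Alternatives were DESeq2 1.42.0, limma-voom (limma 3.58.1), the likelihood ratio test, the newer quasi-likelihood fit, other scalings, filters and cut-offs, a replicate block, leaving out each sample and leaving out 11 globin rows. DESeq2 gave no adjusted p for 2413 genes. The fits were tested on simulated counts. The members and lists were chosen with earlier results of these data known. Beside the members, the text names every called gene of the lists, the gene of each list with the largest change and a mean of at least 1 CPM, and the 5 genes nearest in pattern to the member with the smallest p. Of 103 listed genes, 101 were in the table and 100 were tested. Of the 8 Schwann cell markers, 2 are not reported here. No row of the table was matched to the Egr2 antisense RNA, so the labels were not checked by its level. None of the members had a copy row, and 617 rows of the table are such copies.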

Additional observations from a re-analysis of the deposited data

How the results depend on the processing

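The number of ATF4 response genes called higher, 2 with all 4 samples, was 2 in 9 of the other fits and under both other cut-offs, and 3 with DESeq2. Leaving out a sample gave 0 to 5, with 0 without either Lenti-GFP sample and 5 without Lenti-AS 2, and their median log2 fold change then lay between 0.23 and 0.40. The sign of Atf4 turned, to -0.012 without Lenti-GFP 2 and -0.0033 without Lenti-AS 2, in a range that reached 0.0773, and no other member changed sign in any fit. Against 246 genes called among all (163 higher, 83 lower), DESeq2 called 627 (488 and 139), the likelihood ratio test 521 (374 and 147), an adjusted p under 0.1 477 (344 and 133), and leaving out a sample 1 to 1515 (0 to 1260 and 1 to 278). The share of called genes that was higher was 66.3%, 77.8% with DESeq2 and 73.4% with library totals. In the related lists, 3 were called higher, 6 with DESeq2, the likelihood ratio test or an adjusted p under 0.1, and 0 to 9 with a sample left out (0 to 1 lower). The replicate numbers share no stated culture, and the deviations of samples with the same number had a correlation of -0.018 over genes. Under a replicate block 17 genes were called (3 higher, 14 lower), with 0 of the members and 0 of the related genes. Asns then had an adjusted p of 0.0996 and Slc7a5 of 0.0915, at log2 fold changes of 0.55 and 0.51.

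Some medians of the related lists moved by more than the spread between samples. With library totals the synthetase median was -0.0063 and the stress effector median 0.45. With at least 1 CPM in 2 samples the stress effector median was 0.37 and the hypoxia median 0.0157, since fewer genes were tested. Leaving out a sample gave -0.14 to 0.12 for partner factors, 0.0669 to 0.20 for one-carbon enzymes, 0.0938 to 0.14 for transporters, -0.0797 to 0.19 for other amino acid enzymes, -0.0672 to -0.0032 for synthetases, 0.34 to 0.43 for stress effectors, -0.19 to -0.0900 for chaperone genes, 0.0818 to 0.16 for hypoxia genes and -0.10 to 0.16 for glucocorticoid genes. Except where a cause is named, the cause was not tested. For Trib3 and Chac1, 112 to 290 counts per sample limit the precision.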
